A study of Mus musculus with 4 samples.

Results

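Accessible chromatin was examined at the collagen genes of NMuMG cells, an epithelial cell line from the mouse mammary gland, with and without TGFβ1. The collagen genes were all protein-coding genes of the GENCODE M1 annotation (mouse build mm9) with a symbol of the form Col, number, a, number. The rule gave 43 of 22350 protein-coding genes on chromosomes 1 to 19 and X, and it used no measurement. ATAC-seq, in which the Tn5 transposase inserts adapters into DNA that nucleosomes leave free, gave 3 deposited peak lists for 4 samples. The vehicle list and the TGFβ list came from cells in complete medium with serum and insulin, given the vehicle solution or TGFβ1 at 5 ng per ml for 2 h. For the 10 min list, cells were starved of serum and insulin for 6 h before 10 min of vehicle or of TGFβ1 at 5 ng per ml. The labels of both of these samples name that single list, so the 10 min treatment was not set against its vehicle. A treatment field of the TGFβ sample gives it 2 h after starvation, whereas its title gives 10 min, and the title was followed.

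Each condition in complete medium had 1 list, so no test between conditions was possible, and the differences below have no replicate check. Read counts are not part of the lists. The supplement of the study gives read totals, not used for any value here, in which the vehicle library is deeper than the TGFβ library in complete medium. The intervals given are 95% Wilson intervals of shares or exact 95% intervals of ratios of counts, which cover counting error only, and neighbouring regions are not independent. The TGFβ list was longer than the vehicle list over the whole genome (38532 against 19648 regions, with 26732 in the 10 min list), so the main collagen counts are given beside the same counts over all genes. An epithelial identity was examined by 8 marker genes. Krt8, Krt18 and Grhl2 had a region at a transcription start site (TSS) in all 3 lists, Cldn4 in the TGFβ list alone and Cdh1 in the 10 min list alone, and Epcam, Cldn7 and Esrp1 in none. None of 6 fibroblast markers and none of 4 leukocyte markers had one in any list. Of 4 endothelial markers, Kdr had one in the TGFβ list alone. In the vehicle, TGFβ and 10 min lists, 3, 4 and 4 of the 8 epithelial markers had one. The shares of all protein-coding genes were 41.0%, 47.6% and 46.3%. With so few markers, these calls do not settle a cell identity.

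Collagens are secreted or membrane-bound proteins built of 3 chains wound into a triple helix, and they are the main structural proteins of the extracellular matrix. Fibrillar collagens form the cables of connective tissue, type IV collagens form the meshwork of the basement membrane on which epithelia rest, and other families link, coat or anchor these structures. TGFβ is a classical inducer of matrix genes. Its receptors phosphorylate SMAD2 and SMAD3, which bind DNA with SMAD4 and often act beside AP-1, a dimer of JUN and FOS family proteins. Accessibility is not transcription, and no RNA was measured in these lists.

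The sequences below are examples, and no count or share rests on them alone. In the lists a region is an interval of at least 150 bp, with neighbours closer than 1000 bp joined. A TGFβ-only region is a region of the TGFβ list that overlaps no vehicle region. The first 4 sequences are the central 300 bases of the 4 TGFβ-only regions that ranked highest, by score, then by AP-1 and SMAD matches, then by width. All 4 had a score at the cap of 1000, the value given to the most reproducible peaks. In all, 11 TGFβ-only regions were at the cap, so matches and then width decided which 4 are shown. Some of the others at the cap held no match. The matches of the 4 are thus a result of the choice. The fifth, chosen after its values were seen, lies before an internal start of Col6a3. Capitals mark AP-1 matches (TGACTCA or its reverse complement TGAGTCA) and SMAD matches (CAGACA or TGTCTG, and GTCTAGAC). The matches do not overlap each other. They are properties of the sequence and do not show that a factor was bound.
Flank of Col6a2 (chr10:76096904-76097203, plus strand): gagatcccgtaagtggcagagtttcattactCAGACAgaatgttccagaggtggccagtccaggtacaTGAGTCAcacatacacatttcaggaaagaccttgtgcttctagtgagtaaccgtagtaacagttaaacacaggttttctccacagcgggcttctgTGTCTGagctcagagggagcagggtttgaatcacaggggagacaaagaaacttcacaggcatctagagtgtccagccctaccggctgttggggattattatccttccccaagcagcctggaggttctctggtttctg
Col15a1 body (chr4:47316278-47316577, plus strand): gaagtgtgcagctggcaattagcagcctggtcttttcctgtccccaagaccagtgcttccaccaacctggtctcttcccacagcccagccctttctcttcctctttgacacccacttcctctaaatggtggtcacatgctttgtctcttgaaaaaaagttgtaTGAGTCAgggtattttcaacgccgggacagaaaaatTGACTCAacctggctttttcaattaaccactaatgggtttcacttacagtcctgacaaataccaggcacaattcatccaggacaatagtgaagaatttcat
Col6a3 body (chr1:92667704-92668003, plus strand): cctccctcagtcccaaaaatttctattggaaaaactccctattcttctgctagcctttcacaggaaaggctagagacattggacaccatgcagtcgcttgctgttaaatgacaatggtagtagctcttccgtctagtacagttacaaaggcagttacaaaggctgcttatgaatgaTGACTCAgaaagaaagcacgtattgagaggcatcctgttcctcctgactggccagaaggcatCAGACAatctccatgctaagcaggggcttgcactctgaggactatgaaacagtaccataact
Col7a1 body (chr9:108880189-108880488, plus strand): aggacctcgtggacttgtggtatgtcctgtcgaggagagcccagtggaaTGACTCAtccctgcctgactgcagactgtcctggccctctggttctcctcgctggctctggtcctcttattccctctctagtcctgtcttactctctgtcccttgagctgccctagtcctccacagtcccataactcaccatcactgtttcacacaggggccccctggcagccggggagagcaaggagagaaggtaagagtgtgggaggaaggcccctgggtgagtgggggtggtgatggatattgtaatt
Col6a3 internal start (chr1:92699783-92700082, plus strand): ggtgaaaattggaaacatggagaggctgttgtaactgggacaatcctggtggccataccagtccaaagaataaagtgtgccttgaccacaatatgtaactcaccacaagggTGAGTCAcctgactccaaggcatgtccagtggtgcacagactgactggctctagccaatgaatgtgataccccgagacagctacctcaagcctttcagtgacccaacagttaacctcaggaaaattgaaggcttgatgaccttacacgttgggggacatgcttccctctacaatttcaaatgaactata

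The first of these regions lay 10679 bp upstream of Col6a2 in intergenic DNA (chr10:76096788-76097320) and held 1 AP-1 and 2 SMAD matches. It was also present in the 10 min list. The Col15a1 region (chr4:47316297-47316559) held 2 AP-1 matches and lay 35 bp before an internal protein-coding start of that gene. The Col6a3 region (chr1:92667739-92667969) was intronic, 72675 bp from the 5′ end, with 1 match to each motif. The Col7a1 region (chr9:108879925-108880753) covered an exon 24708 bp into the gene and held 1 AP-1 match, and it too was present in the 10 min list. The region before the internal start of Col6a3 (chr1:92699793-92700072) held 1 AP-1 match and was absent from the 10 min list.

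Few collagen genes had an accessible start. A TSS counted as accessible when a region lay within 1000 bp of the start of any annotated transcript of the gene. This was so for 6 of 43 collagen genes in the vehicle list (14.0%, interval 6.56 to 27.3), against 41.0% of all protein-coding genes. In the TGFβ list it was so for 9 (20.9%, 11.4 to 35.2), against 47.6% of all genes. In the 10 min list it was so for 6 (14.0%), against 46.3% of all genes. In each list the upper bound for the collagen genes was below the share of all genes. Restricted to the annotated 5′ end of the gene, the counts were 5, 6 and 5 collagen genes in the vehicle, TGFβ and 10 min lists, against 38.5%, 44.5% and 43.4% of all genes.

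The 6 genes with an accessible TSS in the vehicle list were also those of the 10 min list, namely Col1a1, Col4a1, Col4a2, Col6a2, Col15a1 and Col18a1. The TGFβ list held these 6 and in addition Col6a3, Col12a1 and Col27a1. The share of collagen genes with a TSS region in the TGFβ list and none in the vehicle list was 3 of 43 (6.98%, 2.40 to 18.6), close to the 7.24% of all genes. No collagen gene had a TSS region in the vehicle list and none in the TGFβ list, where 0 of 43 allows a share of up to 8.20% by the Wilson bound, against 0.622% of all genes. The remaining 34 collagen genes had no TSS region in any list.

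**Figure D1:**
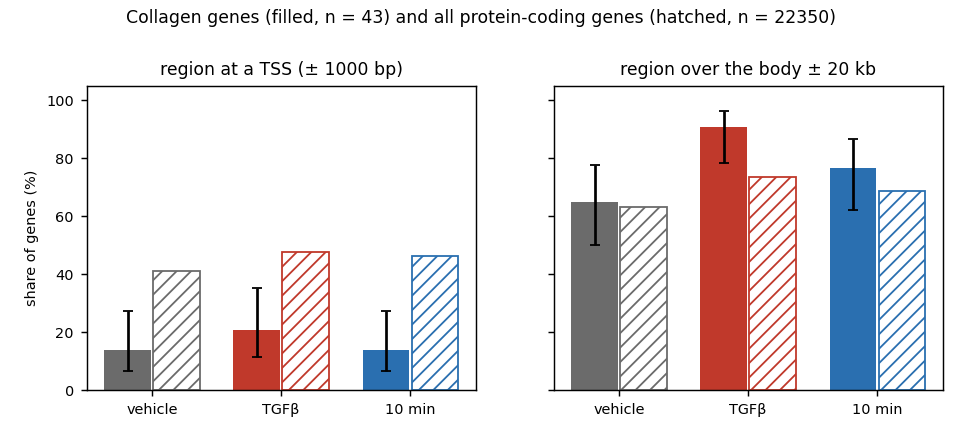
Share of genes (vertical axis, %) with a region at a TSS (left) and with a region over the gene body and 20 kb on each side (right), by list; filled bars are the 43 collagen genes with 95% Wilson intervals and hatched bars are all 22350 protein-coding genes. At the TSS the collagen bars, at 14.0 to 20.9%, lie below those of all genes, at 41.0 to 47.6%. Over the body and flanks the collagen bar of the TGFβ list, 90.7%, lies above the 73.6% of all genes. Among long genes alone the shares were 86.4% and 85.5%, and shorter genes were not compared apart.

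The promoters of the collagen genes were examined in the genome sequence, from 250 bases before to 50 after the 5′ end. Of 43 promoters 12 were rich in CpG (27.9%, with an observed to expected ratio of at least 0.6 and a GC content of at least 50%), against 42.0% of all genes. Of these 12, only Col4a1, Col4a2 and Col12a1 had a region at the 5′ end in the TGFβ list (25.0%, 8.89 to 53.2), against 76.3% of all CpG-rich promoters. Col2a1, Col5a1, Col5a3, Col8a2, Col13a1, Col15a1, Col23a1, Col25a1 and Col27a1 had CpG-rich promoters at the annotated 5′ end and no region there. Of the 31 promoters poor in CpG, 3 had a 5′ region in the TGFβ list (9.68%, 3.35 to 24.9), against 21.4% of all such promoters. The lower share of accessible collagen promoters was thus seen in both promoter classes, although the interval of the CpG-poor class reached above the background. A TATAAA match was held by 6 collagen promoters (14.0%, against 13.4% of all), a CCAAT match by 18 (41.9%, against 37.9%) and a GC box by 24 (55.8%, against 43.5%), each on either strand.

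For Col27a1 and Col6a3, which had a TSS region in the TGFβ list alone, the promoter is shown as the 250 bases before the start, with the GC box (GGGCGG or CCGCCC) in capitals. For Col27a1 the longest coding transcript starts 1431 bp inside the annotated gene. The sequence before that coding start was added after the values were seen, since the region lay there.
Col27a1 coding promoter (chr4:62876219-62876468, plus strand): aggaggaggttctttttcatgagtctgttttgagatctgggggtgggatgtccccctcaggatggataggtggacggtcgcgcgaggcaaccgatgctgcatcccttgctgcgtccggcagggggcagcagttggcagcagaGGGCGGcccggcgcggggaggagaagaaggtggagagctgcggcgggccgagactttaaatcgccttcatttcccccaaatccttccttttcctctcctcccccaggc
Col27a1 promoter at the gene's first base (chr4:62874788-62875037, plus strand): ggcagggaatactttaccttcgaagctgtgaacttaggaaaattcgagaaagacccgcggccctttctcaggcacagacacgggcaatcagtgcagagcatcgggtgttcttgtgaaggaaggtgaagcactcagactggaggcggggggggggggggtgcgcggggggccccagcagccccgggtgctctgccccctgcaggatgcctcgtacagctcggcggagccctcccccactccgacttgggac
Col6a3 promoter (chr1:92740530-92740779, minus strand): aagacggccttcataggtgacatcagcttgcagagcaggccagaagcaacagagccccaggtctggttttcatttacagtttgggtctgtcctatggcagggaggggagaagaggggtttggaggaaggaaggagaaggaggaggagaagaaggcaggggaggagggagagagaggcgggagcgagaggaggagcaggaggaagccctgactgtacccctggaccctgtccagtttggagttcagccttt

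Col12a1 codes for a collagen that sits on the surface of type I fibrils. Its region in the TGFβ list (score 705, 2 peaks) covered the 5′ end of the gene and a protein-coding start 111 bp downstream. The nearest vehicle region lay 37612 bp downstream and the nearest 10 min region 37330 bp downstream. Col27a1 codes for a fibrillar collagen known from cartilage. Its region (chr4:62876273-62876524, score 675, 1 peak) covered the coding start, with 1 GC box in the 250 bases before it. None was found before the first annotated base. Col6a3 codes for the longest of the main chains of type VI collagen, which forms beaded filaments around cells. Its region lay 695 bp from the start of an internal protein-coding transcript, 41431 bp from the 5′ end of the gene. The promoter at that 5′ end had no region in any list and no match to the GC box. The TSS calls of Col12a1 and Col27a1 thus lay at protein-coding starts near the beginning of the gene, and that of Col6a3 lay deep inside it.

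The type I collagen genes, which code for the chains of the most abundant fibrillar collagen, stood apart from each other. Col1a1 had a region that began in its first kilobase in all 3 lists. It began 876 bp (vehicle), 506 bp (TGFβ) and 520 bp (10 min) downstream of the 5′ end. None of these regions reached the start itself. The stretch common to all 3 is shown because it is the part of the gene body that was accessible in every list, and it was chosen after its position was known. It held no AP-1 and no SMAD match, so it has no capitals.
Col1a1 common stretch (chr11:94798414-94798612, plus strand): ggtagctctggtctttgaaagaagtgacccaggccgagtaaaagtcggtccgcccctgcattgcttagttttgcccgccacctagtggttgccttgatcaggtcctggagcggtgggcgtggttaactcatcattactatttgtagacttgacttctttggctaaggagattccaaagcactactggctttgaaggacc

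Over the Col1a1 body and 20 kb on each side there were 4 vehicle, 4 TGFβ and 5 10 min regions. None of the TGFβ regions was TGFβ-only. Relative to the 5′ end they were centred at -19912, -7850, 790 and 22135 bp, the last at the start of another gene. All 4 were at the score cap in the TGFβ list, as were 2 of the 4 in the vehicle list. Col1a2, the partner chain, had 0 regions in every list over its 36.7 kb and both flanks. Col25a1, Col4a4 and Col6a6 likewise had 0 in every list.

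Over the gene body and 20 kb on each side, 28 of 43 collagen genes had at least 1 region in the vehicle list (65.1%, 50.2 to 77.6), against 63.1% of all genes. In the TGFβ list 39 had one (90.7%, 78.4 to 96.3), against 73.6% of all genes. In the 10 min list 33 had one (76.7%, 62.3 to 86.8), against 68.8% of all genes. Distinct regions over these windows numbered 59 (vehicle), 128 (TGFβ) and 84 (10 min). TGFβ regions outnumbered vehicle regions by a ratio of 2.17 (1.58 to 3.01), and over all genes the ratio was 1.83 (1.79 to 1.86), a value inside the interval of the collagen genes. Per 100 kb of window the collagen genes held 0.881, 1.91 and 1.25 regions in the vehicle, TGFβ and 10 min lists. All genes held 1.15, 2.11 and 1.56.

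By gene, 32 of 43 collagen genes had more regions in the TGFβ list than in the vehicle list (74.4%, 59.8 to 85.1), against 48.2% of all genes. In 11 the numbers were equal. None had fewer (0 of 43, at most 8.20%), against 2.07% of all genes. The difference was 1 region in 13 genes, 2 in 9, 3 in 5, 5 in 4 and 6 in 1. At least 1 TGFβ-only region lay over 34 genes (79.1%, 64.8 to 88.6), against 50.2% of all genes. A vehicle region that overlapped no TGFβ region lay over 6 genes (14.0%, 6.56 to 27.3), against 6.93% of all genes.

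Collagen genes are long. Their median length was 114 kb, with a range from 7.11 to 419 kb, against a median of 15.4 kb for all genes, and a longer window can hold more regions. The comparison was therefore repeated with genes at least as long as the median collagen gene. Of 22 such collagen genes 18 had more TGFβ than vehicle regions (81.8%, 61.5 to 92.7), against 74.2% of 1991 genes of that length. At this length the background lay inside the collagen interval. At least 1 TGFβ region was held by 19 of the 22 (86.4%, 66.7 to 95.3), against 85.5% of the long genes, so these shares were alike. Of the 4 collagen genes with no TGFβ region, Col4a4, Col6a6 and Col25a1 are among the long genes and Col1a2 is not. Collagen genes below the median length were not set against genes of their own length. Whether length accounts for the higher share seen against all genes was not tested. A TSS region in the TGFβ list was held by 5 of the 22 (22.7%, 10.1 to 43.4), against 53.6% of the long genes, so the low share of accessible starts was also seen among long genes.

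**Figure D2:**
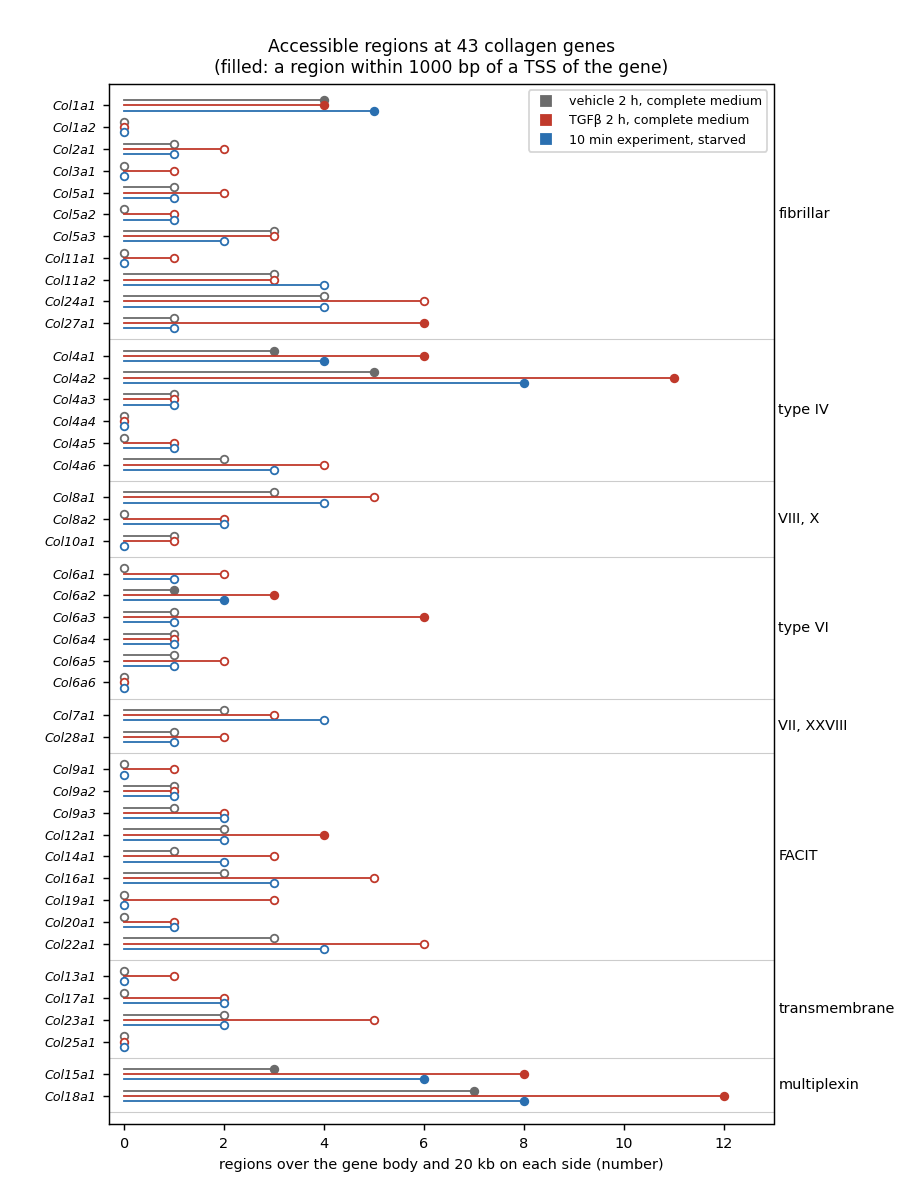
Number of regions over the body and 20 kb on each side (horizontal axis) of each of the 43 collagen genes, grouped by family, in the vehicle (grey), TGFβ (red) and 10 min (blue) lists; filled points mark a gene with a region within 1000 bp of a TSS in that list. The largest numbers in the TGFβ list are 12 for Col18a1, 11 for Col4a2 and 8 for Col15a1, and filled points occur in 9 genes.

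Among the 11 fibrillar genes there were 17 vehicle, 29 TGFβ and 19 10 min regions. Of the 29, 15 were TGFβ-only (51.7%, beside 48.7% over all genes and 64.5% of distal regions). The numbers differed most at Col27a1, with 1 vehicle, 6 TGFβ and 1 10 min regions. Its single vehicle region, intronic and 102173 bp into the gene, was present in all 3 lists. The other 5 TGFβ regions were absent from both other lists, and 1 of them, 34700 bp into the gene, reached a width of 1273 bp and the score cap. Col3a1, which codes for type III collagen of elastic tissues, had 0 vehicle, 1 TGFβ and 0 10 min regions, and the 1 region lay 2254 bp upstream of its start with a score of 713. Col5a1, which codes for a type V chain that sets fibril diameter, had 1 vehicle, 2 TGFβ and 1 10 min regions. Its vehicle region, 53272 bp into the gene, overlapped the 10 min region but neither TGFβ region, which lay 30170 and 50289 bp into the gene. Col11a1 and Col5a2 had 0 vehicle regions and 1 TGFβ region each, Col2a1 had 1 and 2, and Col24a1 had 4 and 6. Col5a3 and Col11a2 had 3 in both lists.

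The type IV genes held 10 vehicle, 20 TGFβ and 16 10 min regions. Col4a1 and Col4a2, which code for the chains of the ubiquitous basement membrane collagen, are transcribed away from each other from annotated starts 21 bp apart. A region covered both starts in every list. It was 821 bp (vehicle), 758 bp (TGFβ) and 1278 bp (10 min) wide. Over Col4a1 and its flanks there were 3 vehicle, 6 TGFβ and 4 10 min regions, and over Col4a2 and its flanks 5, 11 and 8. Both windows share the promoter and the regions within 20 kb of it. All 7 vehicle regions of the pair were called in all 3 lists. The 7 TGFβ-only regions of the pair lay at 10270, 19070, 74660, 80601, 87597 and 151104 bp from the Col4a2 start on the Col4a2 side and at 97396 bp from the Col4a1 start on the other. Of these, 4 were also in the 10 min list, and they were the 4 farthest from the shared promoter. The X-linked pair Col4a5 and Col4a6 had 0 and 2 vehicle regions and 1 and 4 TGFβ regions. Col4a3 had 1 in every list.

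**Figure D3:**
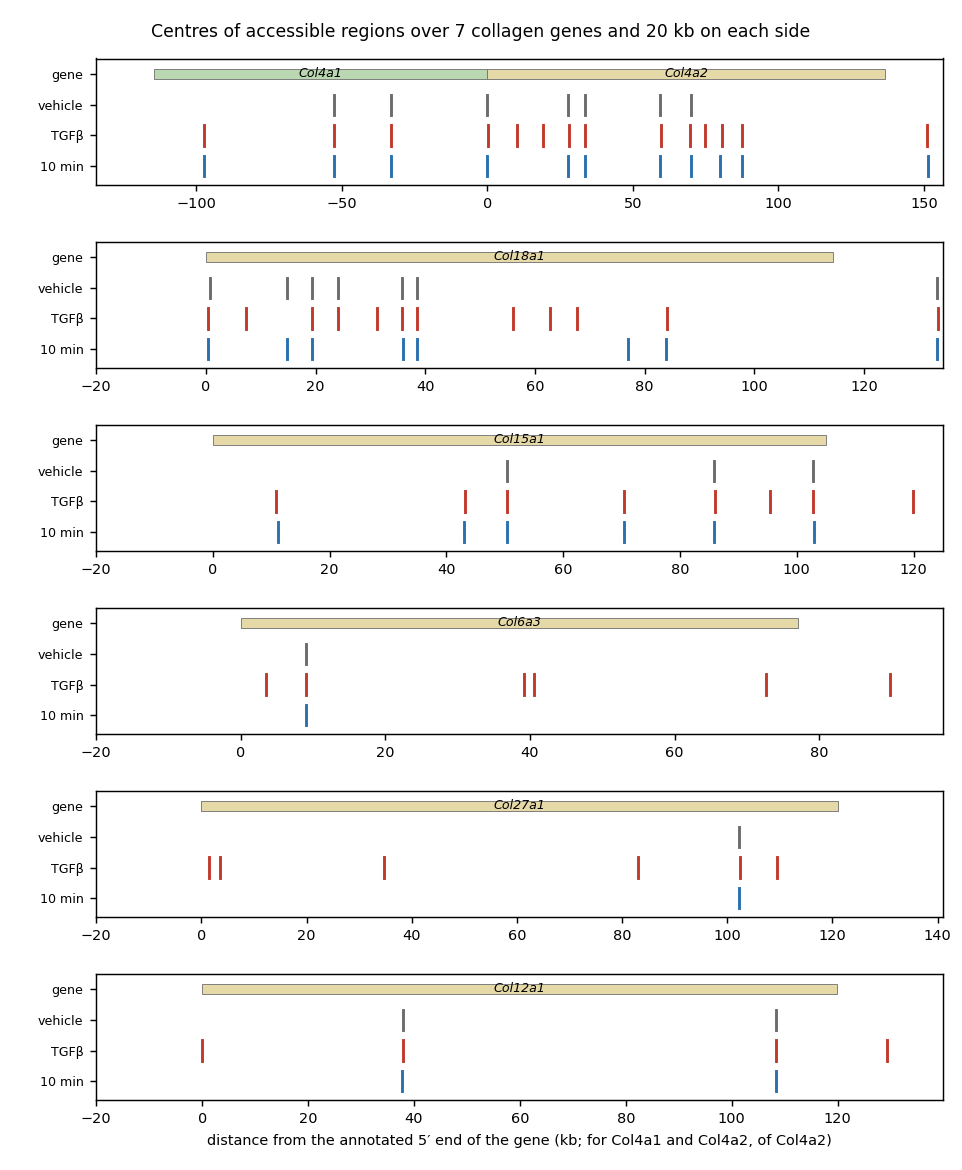
Centres of accessible regions (vertical ticks) in the vehicle, TGFβ and 10 min lists over 7 collagen genes and 20 kb on each side, with the gene body as a bar; the horizontal axis is the distance from the annotated 5′ end of the gene in kb, drawn in the direction of transcription (of Col4a2 in the first panel). All 3 lists share a tick at the start of Col4a1 and Col4a2, and the TGFβ row of Col27a1 holds 6 ticks where each other row holds 1.

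The type VI genes held few vehicle regions. They numbered 3, against 13 TGFβ and 5 10 min regions over the 6 genes. Of the 13, 10 were TGFβ-only (76.9%, beside 48.7% over all genes and 64.5% of distal regions). The ratio was 4.33, with an interval from 1.19 to 23.7 that includes the 1.83 of all genes. Col6a3 accounted for 5 of the 10. It had 1 vehicle region, 6 TGFβ regions and 1 10 min region, and the region common to all lists was intronic, centred 9005 bp into the gene in the TGFβ list. The 5 others were in the TGFβ list alone. They had scores of 628, 669, 697, 1000 and 1000. Col6a1, a second main chain, had 0 vehicle, 2 TGFβ and 1 10 min regions. The TGFβ regions lay 8979 bp upstream, also in the 10 min list, and 32493 bp downstream. Col6a2, the third main chain, had a region within 58 bp of its 5′ end in every list and 1, 3 and 2 regions in all. Col6a4 and Col6a5 share part of their windows and had 1 and 2 TGFβ regions, against 1 vehicle region each.

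Col7a1 codes for the collagen of anchoring fibrils, which tie epithelial basement membranes to the tissue below. It had 2 vehicle, 3 TGFβ and 4 10 min regions. Both vehicle regions lay at starts of neighbouring genes, Uqcrc1 and Pfkfb4, and were called in all 3 lists. The exonic region shown above was the only region inside the Col7a1 body in the TGFβ list. Col28a1 had 1, 2 and 1 regions.

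The FACIT collagens, which bind to fibrils and carry interrupted helices, had 10 vehicle, 25 TGFβ and 15 10 min regions over 9 genes. Of the 25, 17 were TGFβ-only (68.0%, beside 48.7% over all genes and 64.5% of distal regions), and the ratio of 2.50 had an interval of 1.16 to 5.83 that includes the 1.83 of all genes. Col12a1 had 2, 4 and 2 regions in the vehicle, TGFβ and 10 min lists. Besides the promoter region, its other TGFβ-only region lay 129339 bp from the start, beyond the end of the gene, with a score of 997. Col22a1, a collagen of tissue junctions, had 3, 6 and 4 regions. Of its 4 TGFβ-only regions, those 116387 and 143357 bp into the gene were at the cap and in the 10 min list as well. Its region 17425 bp upstream of the start was in the vehicle list alone. Col16a1 had 2, 5 and 3 regions, and the TGFβ-only region nearest to its start, 2315 bp downstream, was also in the 10 min list. Col19a1 had 0, 3 and 0 regions and Col14a1 had 1, 3 and 2. Col9a1 and Col20a1 had 1 TGFβ region and 0 vehicle regions, Col9a3 had 2 and 1, and Col9a2 had 1 in each.

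Among the transmembrane collagens there were 2 vehicle, 8 TGFβ and 4 10 min regions. Col17a1 codes for a collagen of the hemidesmosome, the junction that fixes basal epithelial cells to the basement membrane. It had 0 vehicle, 2 TGFβ and 2 10 min regions. The TGFβ regions lay 1937 and 7811 bp upstream of the start and the 10 min regions 17479 and 33027 bp into the gene, so no region was common to both lists. Col23a1 had 2, 5 and 2 regions and Col13a1 had 0, 1 and 0. The network-forming genes Col8a1, Col8a2 and Col10a1 had 3, 0 and 1 vehicle regions and 5, 2 and 1 TGFβ regions.

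The multiplexins, basement membrane collagens with many interruptions of the helix, were the family with the most regions per length. Col15a1 and Col18a1 together held 10 vehicle, 20 TGFβ and 14 10 min regions, which is 3.34, 6.68 and 4.68 per 100 kb. Col18a1, whose product yields the fragment endostatin, had 7, 12 and 8. A region lay at its start in every list. In the vehicle list it began 555 bp downstream, whereas in the TGFβ and 10 min lists it covered the 5′ end. Its 6 TGFβ-only regions had scores of 617, 644, 654, 691, 802 and 890, none at the cap, and 1 vehicle region in an intron had no TGFβ counterpart. Col15a1 had 3, 8 and 6 regions. Its TSS region in all 3 lists lay at a start of non-coding transcripts 50374 bp into the gene, and the annotated 5′ end had no region. Of its 5 TGFβ-only regions, 3 were in the 10 min list, centred at 10794, 43122 and 70486 bp.

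By position, the 128 TGFβ regions lay mostly inside genes. In introns there were 76 (59.4%) and in exons 7 (5.47%), 20 were intergenic (15.6%), 9 lay at a collagen TSS (7.03%) and 16 at the TSS of another gene (12.5%). TGFβ-only regions made up 49 of the 76 intronic regions, 12 of the 20 intergenic ones, 4 of the 9 at a collagen TSS and 5 of the 16 at the TSS of another gene. Inside collagen bodies 53 of 86 were TGFβ-only, and in the flanks 22 of 42. Altogether 75 of 128 TGFβ regions overlapped no vehicle region (58.6%, 49.9 to 66.8), against 48.7% of 29543 regions over all genes. The share differed by position. Of the TGFβ regions of the collagen genes 25 of 128 lay at a TSS, against 10746 of 29543 over all genes, and regions at a TSS were less often TGFβ-only in both sets. Among distal regions, those at no TSS, 66 of 103 collagen regions were TGFβ-only (64.1%, 54.5 to 72.7), against 64.5% of 18797, so at distal positions the shares were alike within counting error. At a TSS 9 of 25 were TGFβ-only (36.0%, 20.2 to 55.5), against 21.1%, a background inside the interval. TGFβ regions stood to vehicle regions in a ratio of 2.45 (1.70 to 3.60) at distal positions, against 2.52 over all genes, and 1.47 (0.763 to 2.90) at a TSS, against 1.23.

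Overlapping regions of the 3 lists were joined into 143 sites over the collagen genes and 32937 over all genes. All 3 lists shared 50 collagen sites (35.0%, 27.6 to 43.1), against 42.5% of all sites. The TGFβ list alone held 53 (37.1%, 29.6 to 45.2), against 28.7%. With sites at a TSS left out it held 48 of 114 (42.1%, 33.4 to 51.3), against 39.2%, which lay inside the interval. A further 21 were in the TGFβ and 10 min lists (14.7%, 9.81 to 21.4), against 14.7%. The vehicle list alone held 2, the vehicle and TGFβ lists 4, the vehicle and 10 min lists 3 and the 10 min list alone 10 (6.99%, against 7.78%). Of the 75 TGFβ-only regions, 22 were in the 10 min list (29.3%, 20.2 to 40.4), against 34.4% over all genes.

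**Figure D4:**
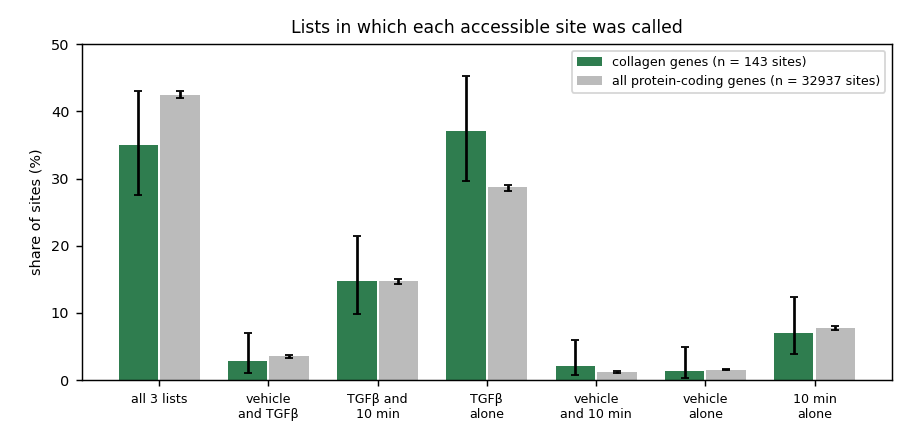
Share of accessible sites (vertical axis, %) called in each combination of the 3 lists, for the 143 sites over collagen genes (green) and the 32937 sites over all protein-coding genes (grey), with 95% Wilson intervals. Sites of the TGFβ list alone make up 37.1% of the collagen sites and 28.7% of all sites, and 42.1% against 39.2% once sites at a TSS are left out.

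TGFβ-only collagen regions were narrow and of moderate score. Their median width was 292 bp and their median score 769, and 11 of 75 (14.7%) were at the cap. The 53 TGFβ regions that overlapped a vehicle region had a median width of 513 bp and a median score of 1000, and 37 (69.8%) were at the cap. Over all genes the values were 280 bp, 742 and 13.7% for TGFβ-only regions and 568 bp, 1000 and 72.0% for shared ones, so the collagen regions differed between the classes much as those of other genes did.

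The counts were repeated with the TGFβ list at the length of the vehicle list. When the TGFβ list was shortened to the 19648 regions with the highest scores, the number in the vehicle list, the lowest score kept was 904. The vehicle list was left whole. The collagen genes then had 65 TGFβ regions against 59 vehicle regions, a ratio of 1.10 (0.762 to 1.59), and all genes had a ratio of 0.976 (0.954 to 0.997). More TGFβ than vehicle regions were found at 11 collagen genes (25.6%, 14.9 to 40.2), against 12.5% of all genes, and fewer at 8 (18.6%, 9.74 to 32.6), against 17.6%. Regions with no vehicle overlap numbered 23 of 65 (35.4%, 24.9 to 47.5), against 21.0%. Shortening made the lists equal in total length, so a ratio near 1 was largely built in, and no conclusion is drawn from it. The collagen interval included the ratio of all genes. The shares of genes with more regions and of TGFβ-only regions lay above those of all genes. Among genes at least as long as the median collagen gene, more TGFβ regions were found at 5 of 22 collagen genes (22.7%, 10.1 to 43.4), against 24.0%. Among distal regions 18 of 47 had no vehicle overlap (38.3%, 25.8 to 52.6), against 34.8%. Neither share differed from these backgrounds beyond counting error. The length split leaves out Col6a1, Col6a3, Col7a1, Col15a1, Col16a1 and Col20a1, which had more TGFβ regions but are shorter. Shorter collagen genes were not set against shorter genes. At a TSS 5 of 18 regions of the shortened list had no vehicle overlap (27.8%, 12.5 to 50.9), against 7.83%. These 5 lay at starts of the neighbouring genes H2-Ke6, 1600027N09Rik and Arfgap1 and at internal starts of Col6a3 and Col15a1. None lay at the 5′ end of a collagen gene. The 11 genes were Col6a3, Col15a1, Col19a1 and Col27a1, each with 2 more regions, and Col4a5, Col5a2, Col6a1, Col7a1, Col16a1, Col20a1 and Col22a1, each with 1 more. The 8 genes with fewer included Col4a1, Col4a2 and Col18a1, where regions of the full list scored at or below that value. Of the TSS regions, those of Col1a1, Col6a3, Col15a1 and Col18a1 remained, at 4 of 43 collagen genes (9.30%), against 38.1% of all genes.

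**Figure D5:**
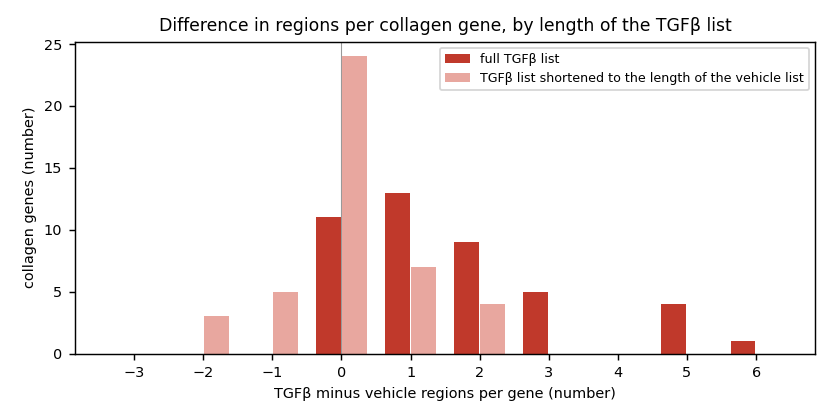
Number of collagen genes (vertical axis) by the difference in regions per gene, TGFβ minus vehicle (horizontal axis), with the full TGFβ list (dark) and with the TGFβ list shortened to the 19648 regions of highest score (light). With the full list 32 genes lie above 0 and none below, and with the shortened list 11 lie above and 8 below.

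Motif words were counted within 200 bp of the centre of distal regions, those at no TSS. AP-1 matched 53 of 103 distal collagen regions of the TGFβ list (51.5%, 41.9 to 60.9), against 39.5% of 18797 distal regions over all genes. In the vehicle list the share was 54.8% (39.9 to 68.8), against 42.9%, and in the 10 min list 55.0% (42.5 to 66.9), against 37.9%. Within the TGFβ list, regions shared with the vehicle list matched in 64.9% (48.8 to 78.2), against 43.4%, and TGFβ-only regions in 43.9% (32.6 to 55.9), against 37.4%. The collagen interval lay above the background in the TGFβ and 10 min lists and in the shared regions, while it included it in the vehicle list and in the TGFβ-only regions. These counts are not separate, since 50 of 143 collagen sites were in all 3 lists and the shared regions are part of the TGFβ list. The vehicle share rested on 42 regions, which widens its interval, so no contrast between the lists is drawn. A SMAD word matched 45.6% of the TGFβ regions (36.3 to 55.2), against 40.1%, and 35.7% of the vehicle regions (23.0 to 50.8), against 36.1%. In the TGFβ-only regions it matched 47.0% (35.4 to 58.8), against 41.8%, and each of these 3 intervals included its background. The word GGAATG of TEAD factors matched 47.6% of the vehicle regions (33.4 to 62.3), against 30.7%, an interval above its background. It matched 34.0% of the TGFβ regions (25.6 to 43.6), against 28.1%, and 33.3% of the 10 min regions (22.7 to 45.9), against 26.1%. In the shared regions it matched 43.2% (28.7 to 59.1), against 30.2%. The last 3 intervals included their backgrounds. The word CCGGAAGT of ETS factors matched 0 of 103, at most 3.60%, against 0.782%. A CTCF word matched 2 of 103 (1.94%, 0.534 to 6.81), against 4.66%, a background inside the interval. CAGACA and GGAATG are short words that occur often in any sequence.

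Genes that act on collagen chains were examined beside the collagen genes. Of 29 genes for the modification, folding, processing and crosslinking of collagen, a TSS region was held by 15 (vehicle), 18 (TGFβ) and 15 (10 min), beside the 41.0%, 47.6% and 46.3% of all genes given above. The TGFβ list held a TSS region at Serpinh1, the collagen chaperone, at Crtap, a partner of prolyl 3-hydroxylase, at Loxl4, a crosslinking oxidase, and at Pcolce2, an enhancer of procollagen cleavage, where the vehicle list held none. Loxl4 and Pcolce2 also had one in the 10 min list. Sparc, a matrix protein that binds collagen, had one in the vehicle list alone. Among all genes, 7.24% had a TSS region in the TGFβ list and none in the vehicle list, and 0.622% the reverse. The prolyl hydroxylase genes P4ha1, P4ha2 and P4hb (a subunit that also acts as a disulfide isomerase) and the lysyl hydroxylase genes Plod1, Plod2 and Plod3 had one in all 3 lists. Over bodies and flanks these 29 genes held 46, 82 and 67 regions. Their ratio of TGFβ to vehicle regions was 1.78 (1.23 to 2.62), an interval that included the 1.83 of all genes. Of the 82, 42 were TGFβ-only (51.2%, against 48.7% over all genes). By gene, 23 had more TGFβ than vehicle regions, 3 equal numbers and 3 fewer, where 48.2% of all genes had more and 2.07% fewer. These 29 genes were not set against genes of their own length. Of 10 collagen receptor genes, the integrin genes Itga1 and Itgb1 and the kinase gene Ddr1 had a TSS region in every list, and Itga2 had one in the TGFβ and 10 min lists. The receptor genes held 18, 42 and 21 regions, a ratio of TGFβ to vehicle regions of 2.33 (1.31 to 4.31) that included the 1.83 of all genes.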

How the data were processed

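ATAC-seq was performed by the authors in NMuMG cells, and 3 peak lists were deposited for 4 samples. Per the study's methods, the ENCODE ATAC-seq pipeline was run on build mm9, peaks were called with macs2 (MACS2 version 2.1.2 in the submitters' processing notes) and kept by the irreproducible discovery rate between replicates. A read shift to the Tn5 cut position is described for integration analyses, and none separately for peak calling. The labels give 1 sample per condition, so what served as replicates was not settled. The deposited score in each list is the authors' scaled reproducibility, from 540 to a cap of 1000, with 1 line per summit. It was used within a list only.

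Intervals under 150 bp were dropped and gaps under 1000 bp joined, and the highest peak score was assigned to each region. An overlap of 1 bp counted as shared. Genes, TSSs and sequences came from GENCODE M1 and the mm9 genome (all regions lay inside its chromosomes). Scripts ran in Python 3.11.15 with scipy 1.17.1 and matplotlib 3.10.9 and were tested on simulated intervals. Named with values were genes whose TSS call differed between lists, the 8 with the largest TGFβ minus vehicle difference, any with fewer TGFβ regions, and a set of 11 well-known members. The other members were named for completeness. The members and lists of genes were chosen with earlier results of these data known. Splits by position and gene length were partly added after the data were seen. Alternatives covered width, merging, score, list length, TSS definition, flanks and overlap. The promoter sequence of 1 named gene is not reported here.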

Additional observations from a re-analysis of the deposited data

How the results depend on the processing

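Of 122 alternatives to 15 results, 14 of them added after the data were seen, 92 stayed within a factor of 1.5 of the count (or inside the interval of a share or ratio) and 30 moved. No paired analysis was possible because the lists carry no replicates. Peaks at or above the median score of their list left collagen TSS calls at 2 vehicle, 4 TGFβ and 2 10 min genes, genes with a region at 17 vehicle and 19 10 min, regions at 23 vehicle, 56 TGFβ and 29 10 min, 34 TGFβ-only regions, 1 vehicle-only region and 20 genes with more TGFβ regions. The TGFβ list at the length of the vehicle list gave 4 TSS genes (9.30%, against 38.1% of all genes). It also gave 65 regions, 23 TGFβ-only regions (35.4%), a ratio of 1.10 and 17 vehicle-only regions. With it, 11 genes had more and 8 had fewer TGFβ regions. Without flanks there were 36 vehicle and 54 10 min regions, 18 genes with a vehicle region, 3 vehicle-only regions and 1 gene with fewer TGFβ regions. Flanks of 50 kb gave 89 vehicle regions and 1 gene with fewer. A minimum width of 300 bp gave 79 TGFβ regions, 43 TGFβ-only regions and 2 genes with fewer. Leaving out regions at the TSS of another gene, an added alternative, gave 1 gene with fewer, and distal regions alone, also added, gave no moved value. Fewer peaks or a longer or shorter window are the construction of these alternatives. The lists hold no depth, and its effect on their length was not tested.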
